A study of Mus musculus with 8 samples.

Results

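Culture medium from myocyte co-cultures that held only mutant SOD1 cells was compared with medium from co-cultures in which mutant and wild-type cells shared the well, and the microRNAs (miRNAs) in the medium were read on arrays. The 3 G93A/G93A and 3 G93A/WT samples were taken by the group in their titles and make up 6 of the 8 samples of the series; the other 2 are WT/WT. G93A/G93A wells held hSOD1(G93A) myocytes in both chambers. G93A/WT wells held hSOD1(G93A) cells in one chamber and hSOD1(WT) cells in the other. Read with the culture protocol, the titles put the mutant cells of G93A/WT in the bottom chamber and the wild-type cells in the insert, but the deposited array files name the mixed wells with the wild-type cells first and the source label gives no order, so which chamber held which cells is uncertain. The cells were primary myoblasts from hind limb muscle of mouse pups 1 to 3 days old. Every culture, the WT/WT ones included, carried a human SOD1 transgene: hSOD1(WT) pups came from the B6SJL(Tg-SOD1)2Gur/J line and hSOD1(G93A) pups from the B6SJL(Tg-SOD1*G93A)1Gur/J line, so non-transgenic cells were not analysed here. The samples are labelled male and untreated. A porous membrane (0.4 µm) separated the chambers, and medium was taken at 2 days in vitro. The labels name no step that removes other cell types from the muscle preparation. The growth media held 10% foetal bovine serum or 2% horse serum, of which the labels do not say which was collected, and a probe reads a bovine or equine miRNA of the same sequence as if it were the mouse one. A lower medium level cannot be split into fewer releasing cells and less release per cell.

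miRNAs are RNAs of about the length of a short primer that pair with messenger RNAs, mainly through a seed at their 5′ end, and lower the output of those messengers. Cells also release them into the medium, in vesicles or bound to protein, and muscle-specific miRNAs such as miR-206 appear in blood when muscle is damaged. SOD1 is a cytosolic superoxide dismutase, and the G93A mutant causes motor neuron loss and muscle wasting in mice.

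The miRNAs that were lower in G93A/G93A medium included 3 that share a seed, and these are shown with other lower miRNAs described below. Sequences and positions are from RefSeq on mouse build GRCm38.p6, in which 453 of the 538 tested miRNAs and 51 of the 57 that passed the test were matched by name. Capitals mark the seed, bases 2 to 8.
miR-205-5p: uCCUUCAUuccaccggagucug
miR-203-3p: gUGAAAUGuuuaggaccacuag
miR-200b-3p: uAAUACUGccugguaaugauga
miR-200c-3p: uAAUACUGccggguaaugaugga
miR-429-3p: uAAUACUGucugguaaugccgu
miR-181a-5p: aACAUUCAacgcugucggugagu
miR-26a-5p: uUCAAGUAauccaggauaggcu
miR-10a-5p: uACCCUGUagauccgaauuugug
miR-1945: uCUUCGCGgguacugucgggac
The miR-200 members shown share 1 seed, AAUACUG. miR-429-3p (chr4:156053916-156053937) and miR-200b-3p (chr4:156055685-156055706) lie close together on the minus strand, and miR-200c-3p is on another chromosome (chr6:124718324-124718346). miR-205-5p lies at chr1:193507503-193507524, and miR-203-3p at chr12:112130927-112130948. No protein-coding gene of the annotation spans these 5. miR-10a-5p (chr11:96317186-96317208) lies within the span of Hoxb3 in the HoxB cluster.

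The miRNAs that were higher in G93A/G93A medium were of another kind. Most were recently numbered miRNAs, and many carry the run GAGAG, marked in capitals, which is shown because it recurs among them.
miR-3095-3p: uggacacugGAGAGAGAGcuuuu
miR-5113: acagaggagGAGAGAGauccugu
miR-6978-5p: aagggguGAGAGAGaagcuggug
miR-423-5p: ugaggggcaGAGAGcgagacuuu
miR-882: agGAGAGAGuuagcgcauuagu
miR-883a-5p: ugcuGAGAGaaguagcaguuac
miR-7084-5p: uagaggauagagguaGAGAGu
miR-711: gggacccgggGAGAGauguaag
miR-30c-1-3p: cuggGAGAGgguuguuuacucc

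All 8 arrays shared 1 slide. The 3 G93A/WT arrays and WT/WT 1 filled slide row 1, and the 3 G93A/G93A arrays and WT/WT 2 filled row 2, so the row and the cell combination cannot be told apart within the 6 arrays. The summed signal of detected miRNAs ran from 119252 to 202908 units over the 6 arrays, each G93A/WT array lying above each G93A/G93A array, and 451 to 563 miRNAs were detected. G93A/G93A medium gave 483, 451 and 476 detected miRNAs and G93A/WT medium 497, 563 and 520, without overlap (exact permutation test, 2-sided, p = 0.1, the smallest that 3 against 3 allows). Scaled arrays correlated at r = 0.970 to 0.988 within G93A/G93A, 0.985 to 0.990 within G93A/WT and 0.939 to 0.984 between the groups, across miRNAs. Levels below are log2 scaled signals in the order of the replicate numbers, and a difference is G93A/G93A minus G93A/WT on that log2 scale with the moderated standard error (SE) of limma. A miRNA passed when limma's Benjamini-Hochberg adjusted p over the 538 miRNAs tested was under 0.05.

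Of the 538 miRNAs tested, 57 passed, which is 10.6%: 29 (5.39%) were higher and 28 (5.2%) were lower in G93A/G93A medium. Over all tested miRNAs the differences had a median of −0.10, and 312 (58.0%) lay below zero. The groups of 3 arrays did not overlap for 187 miRNAs (34.8%), among them all 57. The 29 higher miRNAs were detected on all 6 arrays and differed by 0.42 to 1.00. The 28 lower ones differed by 0.42 to 3.98 in size; 7 were detected on all 6 arrays, 3 on some G93A/G93A arrays, and 18 on no G93A/G93A array. The lowest signal at which any miRNA was detected averaged 0.72 in G93A/G93A and 0.19 in G93A/WT, the brighter arrays, so dim miRNAs had less room to be seen in G93A/G93A. Detected counts matched those of signals above 3 times their own error on all 8 arrays. An undetected miRNA can therefore lie above such a level. All 18 lay above 0.98, the highest of these detection levels in G93A/G93A, on each G93A/WT array, with means of 1.44 to 2.89. Their calls rest on the floor given to undetected values: with a floor 2 times as high 3 of the 18 still passed (miR-1945, miR-411-5p and miR-7009-5p), and with one 4 times as high 0 did, whereas 39 and 36 of the other 39 calls did. With quantile normalization 4 of the 18 passed, and on the authors' processed values 5 did, against 36 and 30 of the other 39.

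**Figure D1:**
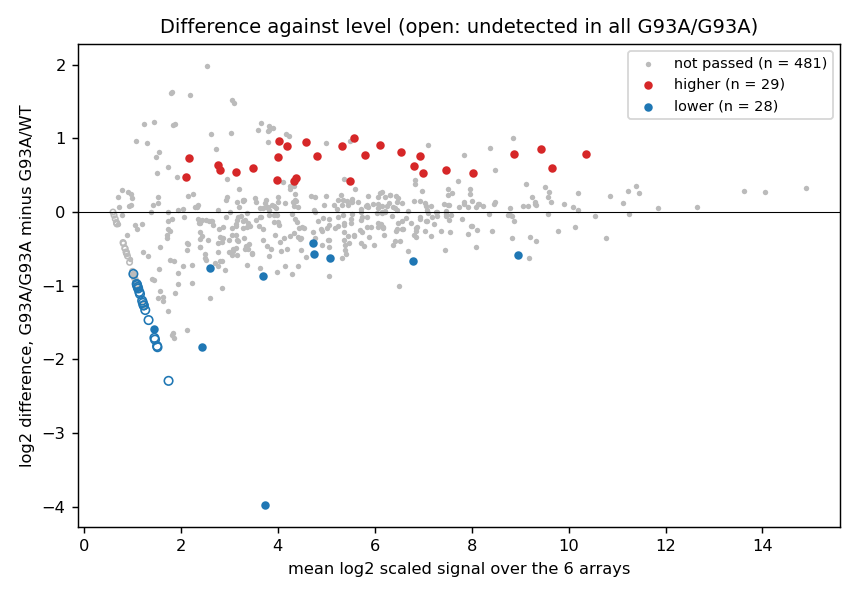
Difference between G93A/G93A and G93A/WT (log2 scale, vertical) against the mean log2 scaled signal over the 6 arrays (horizontal), 1 point per tested miRNA; red points passed as higher (n = 29), blue points as lower (n = 28), and open points were undetected on all G93A/G93A arrays. The higher miRNAs spread over dim and bright levels, while most lower ones sit at the dim end.

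The slide row bears on every one of these calls. When the row was added to the model, with WT/WT 1 and WT/WT 2 as the sole link between rows, 0 of 538 miRNAs (0%) passed in limma (73 had an unadjusted p under 0.05 and the smallest adjusted p was 0.0849). All 57 kept their direction there. For 12 of the lower miRNAs, detected on no WT/WT array, this was fixed in advance. Both WT/WT arrays lie at the floor for them, so the block cannot move the difference. This also limits how far the median of the lower miRNAs can move. The median difference moved from 0.73 to 0.69 for the 29 higher miRNAs and from −1.16 to −1.0 for the 28 lower ones, while their median SE rose from 0.105 to 0.219 and from 0.133 to 0.262. The difference shrank by more than 1.5 times for miR-200b-3p (from −1.71 to −0.67), miR-200c-3p (from −1.11 to −0.60), miR-212-3p (from −1.09 to −0.38), miR-26a-5p (from −0.62 to −0.41) and miR-30c-1-3p (from 0.64 to 0.18), and the part of the row in these was not tested further.

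**Figure D2:**
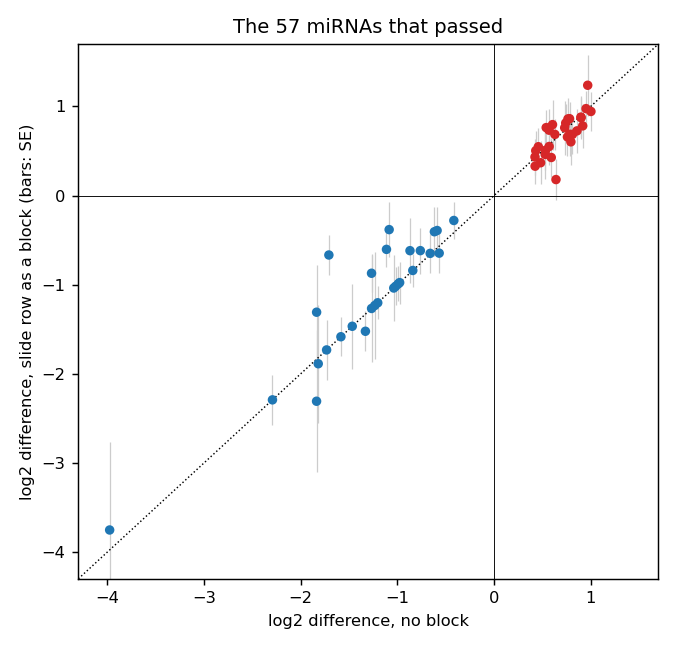
Log2 difference between G93A/G93A and G93A/WT without a block (horizontal) and with the slide row as a block (vertical, bars are SE) for the 57 miRNAs that passed; red is higher and blue lower in G93A/G93A. Points lie on their own side of zero in both fits, and the SE with the block is 2.12 times as large at the median of all tested miRNAs. The 12 lower miRNAs detected on no WT/WT array have the same difference in both fits by design.

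miRNAs of epithelial cells had the lowest median among the 14 lists in pure mutant medium. Of 16 listed, 7 were tested. Of these 5 were lower, beside 5.2% of all tested miRNAs, 0 were higher and 2 did not pass. The median difference was −1.71 (−1.58 with undetected members at their bound) beside −0.10 for all tested miRNAs. Blocking on the slide row moved the list median to −0.67. miR-205-5p, a miRNA of basal cells in the skin and other layered epithelia, stood at 5.54, 5.96 and 5.69 in G93A/WT. In G93A/G93A it was undetected on array 1 and stood at 2.42 and 2.24 on the others. The groups lie far apart, and the difference was −3.98 ± 0.46 (SE, limma adjusted p = 0.00202), a value that depends on the floor given to the undetected array. In WT/WT medium it was higher than in both, at 6.99 and 6.77.

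The keratinocyte miRNA miR-203-3p was read at 1.87, 2.92 and 2.51 in G93A/WT and on no G93A/G93A array, a difference of at least 3.27-fold (limma adjusted p = 0.00519). miR-429-3p, at 1.64, 2.75 and 2.86 in G93A/WT, was at least 3.24-fold lower. miR-200b-3p, at 2.14, 2.39 and 2.40, was at least 3.00-fold lower, and miR-200c-3p, at 1.81, 1.60 and 1.74, at least 1.98-fold. These miR-200 miRNAs restrain the transcription factors Zeb1 and Zeb2 and so keep cells epithelial. None of them was seen on a G93A/G93A array, and all were seen on both WT/WT arrays. With a floor 2 times as high none of these 4 passed in limma: miR-203-3p lay at −0.84 (adjusted p = 0.121), miR-429-3p at −0.82 (0.161), miR-200b-3p at −0.71 (0.137) and miR-200c-3p at −0.11 (0.585). miR-205-5p still passed there, but not on the authors' processed values (−4.78, adjusted p = 0.0999). The bounds set the mean of the bright group against the mean over G93A/G93A arrays of the lowest signal detected there for any miRNA. An undetected miRNA can lie above that level, so each "at least" value here and below is approximate and not a strict minimum. Arrays at the floor add no spread, which can make such adjusted p values too small. The 2 members that did not pass come from the same locus. miR-200b-5p, the opposite arm of miR-200b-3p, was detected on 2 G93A/WT arrays at or just above the floor and on no other (−0.04, adjusted p = 0.723). miR-200a-5p was detected on all 6 arrays, at 1.00, 2.51 and 1.87 in G93A/WT and 1.45, 1.45 and 2.14 in G93A/G93A (difference −0.12 ± 0.38, SE, adjusted p = 0.842), and its sign turned with quantile normalization (0.21), with number classes centred (0.06) and on the authors' values (1.93, adjusted p = 0.0776). Summed over the list, the scaled signal was 64.8 to 92.2 units in G93A/WT, 2.73 to 9.14 in G93A/G93A and 138 to 166 in WT/WT. Most of this sum in G93A/WT and WT/WT is miR-205-5p, the brightest member, so it says little of the others. The keratinocyte and epithelial miRNAs miR-141-3p, miR-200a-3p, miR-375-3p, miR-182-5p, miR-183-5p and miR-96-5p were detected on no array. Whether fewer epithelial cells in the mutant preparations played a part was not tested.

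**Figure D3:**
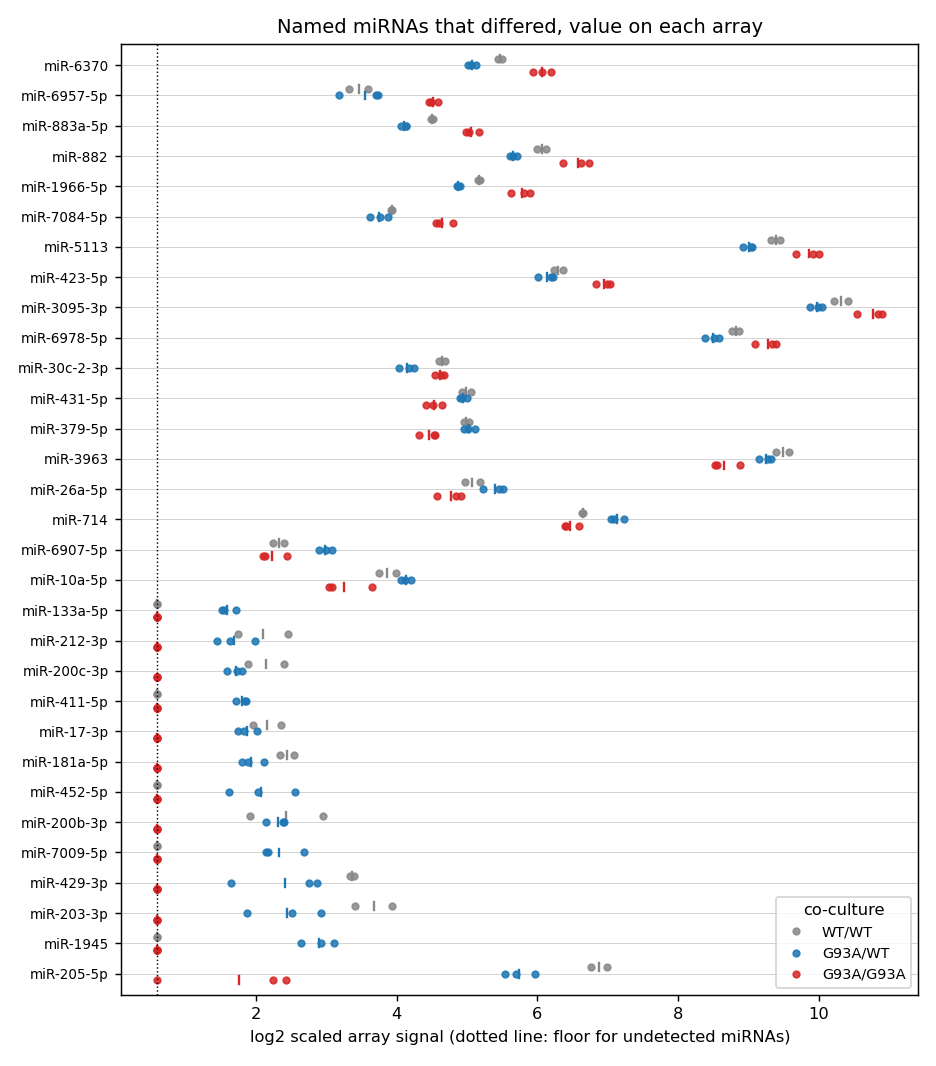
Log2 scaled signal (horizontal) of each named miRNA that passed, 1 point per array and a vertical bar at the group mean: WT/WT grey (n = 2), G93A/WT blue (n = 3), G93A/G93A red (n = 3); the dotted line is the floor at 0.60 given to undetected miRNAs. The red and blue points of a row do not overlap, and 13 rows from miR-133a-5p to miR-205-5p have red points on the floor.

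Muscle miRNAs were bright in both media, and their groups mostly overlapped. Of 11 muscle-enriched miRNAs 6 were tested, of which 0 were higher, 1 was lower (beside 5.2% of all tested miRNAs) and 5 did not pass (median −0.04). miR-206-3p, made in skeletal muscle and induced when myoblasts differentiate, stood at 11.06, 11.37 and 11.39 in G93A/WT and 11.28, 11.21 and 11.23 in G93A/G93A, with overlapping groups (−0.03 ± 0.15, SE, adjusted p = 0.892). Its neighbour miR-133b-3p, at 10.45, 10.69 and 10.57 against 10.15, 10.71 and 10.68, overlapped as well (−0.06 ± 0.18, SE, adjusted p = 0.840). The summed signal of the list was 4478 to 5404 units in G93A/WT and 4216 to 5202 in G93A/G93A. The member that passed, miR-133a-5p, is the rarer arm of the miR-133a hairpin and was dim: 1.71, 1.52 and 1.54 in G93A/WT and undetected in G93A/G93A (at least 1.82-fold lower, adjusted p = 0.00101) and in WT/WT. It entered the test through its detection in G93A/WT alone. miR-208a-3p and miR-208b-3p, encoded within myosin heavy chain genes, were detected on no array.

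Regulators of myoblast growth and differentiation leaned lower in pure mutant medium, though few passed. Of 28 listed, 24 were tested; 2 were lower, beside 5.2% of all tested miRNAs, 0 higher and 22 did not pass. All 24 lay below zero, with a median of −0.36, where the 290 tested miRNAs numbered below 1000, to which all of them belong, had a median of −0.20. miR-181a-5p, which promotes myoblast differentiation by targeting the homeobox protein Hoxa11, stood at 1.89, 2.11 and 1.80 in G93A/WT and was undetected on each G93A/G93A array (at least 2.31-fold lower, adjusted p = 0.00093). The other 3 miRNAs with its seed did not pass: miR-181b-5p lay at −0.11 (adjusted p = 0.551), miR-181d-5p at −0.10 (adjusted p = 0.466) and miR-181c-5p, detected on 1 G93A/G93A array, at −1.64 (adjusted p = 0.084). The median of the 4 was −0.72. miR-26a-5p, which targets Ezh2 and promotes differentiation, was at 5.22, 5.50 and 5.45 in G93A/WT and at 4.57, 4.84 and 4.91 in G93A/G93A (−0.62 ± 0.14, SE, adjusted p = 0.0285). Its groups did not overlap, and the WT/WT arrays (5.18 and 4.97) lay between them.

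The brightest regulators did not pass. miR-125b-5p, which restrains muscle differentiation, was at 9.28, 9.45 and 9.41 against 8.95, 9.01 and 9.14, lower on every G93A/G93A array (−0.34 ± 0.10, SE, adjusted p = 0.073). miR-23a-3p, which targets the muscle ubiquitin ligases atrogin-1 and MuRF1, was at 8.98, 8.87 and 8.93 against 8.69, 8.84 and 8.90 and overlapped (−0.12 ± 0.11, SE, adjusted p = 0.480). The list's summed signal was 2207 to 2370 units in G93A/WT and 1727 to 2036 in G93A/G93A. Its median stayed below zero under each scaling tried, from −0.97 without scaling to −0.19 when miRNAs numbered below 1000 and those above were each centred.

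Fibroblast and stress-related lists were also lower on average without a member that passed. Over all tested miRNAs 10.6% passed and 58.0% lay below zero, and those numbered below 1000 had a median of −0.20. With the number classes centred the medians were −0.30 for the fibroblast and −0.35 for the stress list. Of 10 fibroblast and mesenchymal miRNAs 7 were tested, 0 passed and 7 lay below zero (median −0.47), and the summed signal was 1388 to 1499 units in G93A/WT and 793 to 1154 in G93A/G93A, without overlap. miR-21a-5p, an abundant miRNA of growing and fibrotic tissue that is on this list and on the stress list, was at 9.61, 9.35 and 9.51 against 8.46, 9.05 and 9.08 (−0.63 ± 0.19, SE, adjusted p = 0.083). miR-199a-3p was at 7.95, 8.48 and 8.56 against 7.65, 7.80 and 8.14, with overlap (−0.47, adjusted p = 0.153). Of 10 miRNAs of oxidative stress, hypoxia and p53, 7 were tested, 0 passed and 7 lay below zero (median −0.52), with summed signals of 824 to 925 and 478 to 684 units. miR-365-3p, the other bright member, lay near zero (−0.01 ± 0.12, SE, adjusted p = 0.957).

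Blood-cell, vessel and serum miRNAs were present in both media. Of the 10 tested 0 passed, a number too small to set apart from the 10.6% of all tested miRNAs. Of 9 erythroid and serum miRNAs 6 were tested and 0 passed (median −0.05); miR-451a, a red-cell miRNA, was at 10.13, 10.22 and 10.33 against 9.64, 10.15 and 10.28, and miR-92a-3p at 9.97, 10.06 and 10.10 against 9.95, 10.20 and 10.21. Of 6 leukocyte and platelet miRNAs 3 were tested and 0 passed (median −0.02, mean 0.02), with the myeloid miR-223-3p at 7.06, 7.11 and 7.19 against 7.04, 7.31 and 7.27 and the lymphocyte and macrophage miR-155-5p at a difference of −0.02. The endothelial miR-126a-3p differed by −0.08 (adjusted p = 0.651). Blocking on the slide row gave medians of −0.18 for the muscle, −0.21 for the endothelial and 0.06 for the leukocyte list. The medians of the muscle, leukocyte, erythroid and endothelial lists lay within 0.16 of zero under each scaling except none, and turned sign between them. Of 11 neural miRNAs 5 were tested and 1 was lower, beside 5.2% of all tested miRNAs. That member, miR-212-3p, made in neurons from the miR-132 locus, was at 1.63, 1.98 and 1.44 in G93A/WT and undetected in G93A/G93A (at least 1.95-fold, adjusted p = 0.0171). miR-128-3p (0.02) and miR-338-3p (−0.32, adjusted p = 0.321) did not pass, and miR-124-3p was detected on no array.

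Of 9 let-7 miRNAs, which brake proliferation, 0 passed, beside 10.6% of all tested miRNAs, and 7 lay below zero, beside 58.0%. The list median was −0.27, and the brightest members, let-7c-5p (0.09) and let-7b-5p (0.05), lay above zero. Blocking on the slide row gave medians of −0.51 for let-7, 0.01 for miR-30 (−0.15 without) and −0.31 for the stress list. From the miR-17-92 cluster, which drives proliferation, and its relatives, 13 miRNAs were listed and 10 were tested. Of these 1 was lower, beside 5.2% of all tested miRNAs. That member, miR-17-3p, the minor arm of miR-17, was at 2.02, 1.83 and 1.75 in G93A/WT and undetected in G93A/G93A (at least 2.21-fold, adjusted p = 0.00128), while miR-25-3p (−0.19) did not pass. Of 8 miR-30 miRNAs 5 were tested and 1 was higher, beside 5.39% of all tested miRNAs. That member, miR-30c-2-3p, was at 4.04, 4.25 and 4.17 against 4.67, 4.63 and 4.54 (0.46 ± 0.10, SE, adjusted p = 0.0259), and miR-30a-5p (−0.45, adjusted p = 0.251) and miR-30d-5p (0.01) did not pass. Without scaling between arrays, where the median of all tested miRNAs moved from −0.10 to −0.68, miR-30c-2-3p lay at −0.15.

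The imprinted Dlk1-Dio3 locus on chromosome 12 encodes a large cluster of miRNAs expressed in muscle progenitors and brain. Of 64 listed, 45 were tested. Of these 3 were lower, a share near the 5.2% of all tested miRNAs, 0 were higher and 42 did not pass (median −0.17, and 0.00 with the number classes centred). The list leaves out miR-882, which lies between miR-431-5p and miR-379-5p and was higher (0.92), so its counts do not cover the whole locus. miR-379-5p was at 5.12, 4.96 and 5.01 in G93A/WT and 4.32, 4.53 and 4.54 in G93A/G93A (−0.57 ± 0.10, SE, adjusted p = 0.0122). miR-431-5p, which acts in muscle regeneration and lies within the span of Rtl1, was at 4.93, 5.00 and 4.89 against 4.42, 4.52 and 4.64 (−0.42 ± 0.10, SE, adjusted p = 0.0379). The groups did not overlap in either. With number classes centred neither passed in limma (miR-379-5p −0.40, adjusted p = 0.107; miR-431-5p −0.24, adjusted p = 0.155), and miR-431-5p also did not with median scaling (adjusted p = 0.0584), on the authors' values (0.0534) or in the 6 arrays alone (0.0648). miR-411-5p, the neighbour of miR-379, was at 1.72, 1.84 and 1.85 in G93A/WT and undetected in G93A/G93A (at least 2.11-fold, adjusted p = 0.00035) and WT/WT. It entered the test through its detection in G93A/WT alone. In limma it did not pass with quantile normalization (−0.32, adjusted p = 0.206) or on the authors' values (−1.20, adjusted p = 0.374). The bright members miR-434-3p (0.11, adjusted p = 0.470) and miR-410-3p (−0.25, adjusted p = 0.343) did not pass. Of 20 miRNAs reported in ALS, amyotrophic lateral sclerosis, 15 were tested and 0 passed, beside 10.6% of all tested miRNAs. Below zero lay 14 of them, beside 58.0% of all tested. Their median was −0.32, where the tested miRNAs numbered below 1000, to which they belong, had −0.20. With the number classes centred the list median was −0.15.

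**Figure D4:**
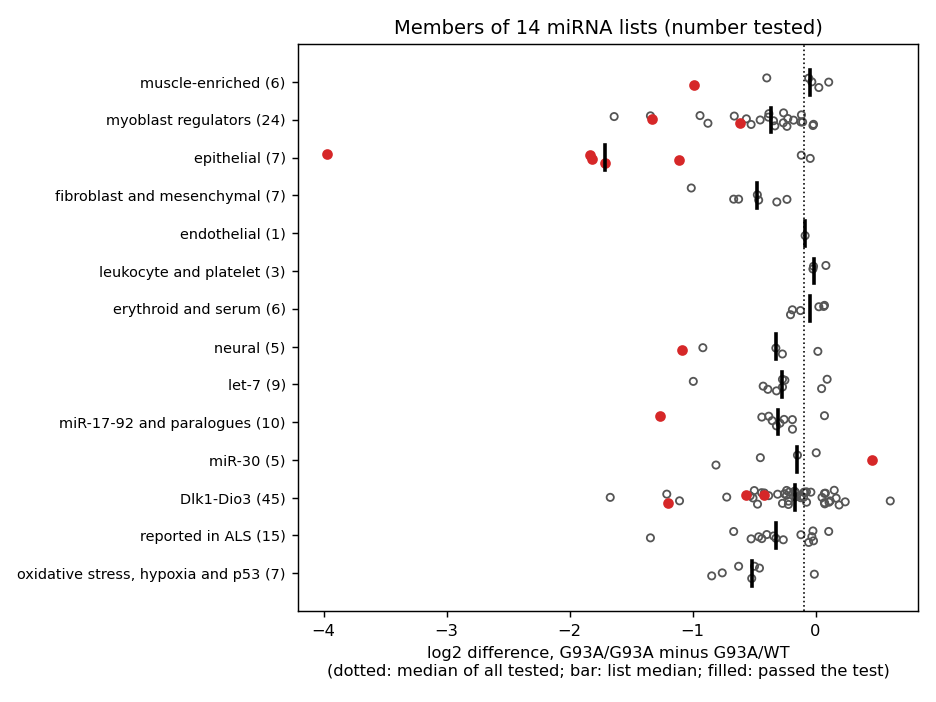
Log2 difference between G93A/G93A and G93A/WT (horizontal) of each tested member of 14 miRNA lists, some of which share members; filled red points passed the test, black bars are list medians and the dotted line is the median of all tested miRNAs at −0.10. The epithelial list has 5 filled points and the lowest median, at −1.71.

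Other lower miRNAs belonged to no list. Among those detected on all 6 arrays, miR-10a-5p, a HoxB-cluster miRNA, was at 4.06, 4.20 and 4.12 in G93A/WT and 3.04, 3.08 and 3.65 in G93A/G93A (−0.87 ± 0.18, SE, adjusted p = 0.0228). miR-6907-5p differed by −0.76 ± 0.12, miR-714 by −0.66 ± 0.10 and the bright miR-3963 by −0.59 ± 0.13 (SE). miR-3963 was at 9.14, 9.27 and 9.32 against 8.55, 8.53 and 8.88. Of those lost to detection in G93A/G93A, miR-1945 led, at 3.11, 2.93 and 2.64 in G93A/WT (at least 4.49-fold, adjusted p = 0.000263), followed by miR-7009-5p (at least 3.05-fold) and miR-452-5p (at least 2.54-fold). These split by what WT/WT medium held: of the 18 lower miRNAs undetected in G93A/G93A, 7 were detected on both WT/WT arrays and 11 on neither. The first set holds miR-203-3p, miR-429-3p, miR-200b-3p, miR-200c-3p, miR-181a-5p, miR-17-3p and miR-212-3p; the second holds miR-1945, miR-7009-5p, miR-452-5p, miR-411-5p and miR-133a-5p among others. miRNAs of the second set entered the test through their detection in G93A/WT alone. Their values at the floor on every other array add no spread, so their adjusted p values can be too small. The reverse pattern, detection on all G93A/G93A arrays and no G93A/WT array, occurred for 0 tested miRNAs.

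The higher miRNAs shifted by small and even amounts. miR-6370 was at 5.05, 5.13 and 5.01 in G93A/WT and 6.06, 6.19 and 5.94 in G93A/G93A (1.00 ± 0.10, SE, adjusted p = 0.00124). miR-6957-5p differed by 0.97 ± 0.17 and miR-883a-5p, an X-linked miRNA of testis, by 0.95 ± 0.09 (SE). miR-423-5p, a miRNA measured in plasma in heart failure, was at 6.01, 6.19 and 6.22 against 7.03, 6.99 and 6.83 (0.81 ± 0.11, SE, adjusted p = 0.00315). The bright miR-3095-3p was at 9.87, 9.98 and 10.05 against 10.90, 10.84 and 10.54 (0.79 ± 0.13, SE, adjusted p = 0.00774), and miR-5113 at 8.92, 9.03 and 9.05 against 9.99, 9.91 and 9.67 (0.86 ± 0.12, SE). In each of these the 3 pure mutant arrays lie above the 3 mixed ones by more than either group spans. miR-882 (0.92), miR-1966-5p (0.90), miR-7084-5p (0.90) and miR-6978-5p (0.78) complete the 10 largest. Of the 29, 23 are numbered 1000 or above, a class with a median difference of 0.05 over its 248 tested members. The WT/WT mean was nearer to G93A/WT for 18 of the 29 and nearer to G93A/G93A for 11, and both WT/WT arrays lay between the group means for 21. The brightest miRNAs in the medium, miR-8110 (0.33, adjusted p = 0.172), miR-3960 (0.28) and miR-5126 (0.29), did not pass.

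G93A/G93A 3 stood closest to the mixed medium. Among the miRNAs that passed and were detected on all 6 arrays, it was the G93A/G93A array nearest to G93A/WT for 27 of 29 higher and 6 of 7 lower ones. Without it, 122 miRNAs passed (55 higher and 67 lower), including all 57. Without G93A/WT 1 the lower calls numbered 53, and without G93A/G93A 2 the higher calls numbered 17. The balance of higher and lower calls also depended on the scaling: 33 and 19 with quantile normalization, 18 and 29 with the number classes centred, 35 and 10 with the authors' processed values and 1 and 148 without scaling, in place of 29 and 28.

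The run GAGAG was searched for in the mature sequences after it had been noticed among the higher miRNAs, so its counts are a description; only the mature strand was read, and the run overlaps AGAGA and GAGAA. It was present in 43 (9.49%) of the 453 tested miRNAs with a sequence and in 3.87% of the 1679 mature miRNAs of the RefSeq table. Of the 26 higher miRNAs with a sequence 16 held it (61.5%), and of the 25 lower ones 0. Counted the other way, 37.2% of holders and 2.44% of the other 410 were higher, beside 5.39% of all tested. The median difference was 0.23 for holders and −0.15 for the rest. Among miRNAs numbered below 1000 it was 0.69 for 8 holders and −0.25 for 234 others, and among those numbered 1000 or above 0.16 for 35 holders and 0.03 for 176 others.

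Each array was then described by the median centred level of the 40 holders detected on all 8 arrays, less that of the 319 other miRNAs detected on all 8. This value was −0.13, −0.17 and −0.20 on the G93A/WT arrays and 0.37, 0.16 and 0.09 on the G93A/G93A arrays. It was −0.16 on WT/WT 1 and −0.08 on WT/WT 2, which sit in the rows of the mixed and the pure mutant arrays, respectively. The run was chosen from miRNAs already higher in G93A/G93A, which are among the 40, so the order of the arrays restates that choice. Blocking on the row gave medians of 0.22 for holders and −0.08 for the others. The gap between holders and others was 0.20 to 0.47 over the settings tried, against 0.38, and the holders' own median was negative without scaling, at −0.38.

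**Figure D5:**
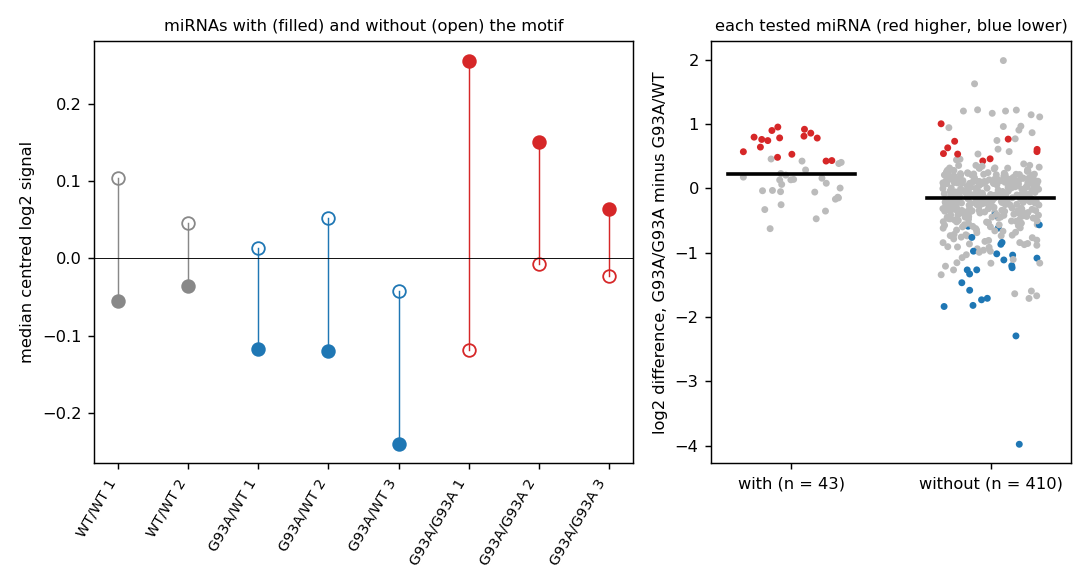
Left, the median centred log2 scaled signal on each array of miRNAs detected on all 8 arrays, filled for the 40 that hold the 5-base run and open for the 319 that do not; WT/WT grey, G93A/WT blue, G93A/G93A red. Right, the log2 difference of each tested miRNA with (n = 43) and without (n = 410) the run, with black bars at the medians of 0.23 and −0.15; filled points lie above open ones on the 3 red arrays.

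A second run of bases stood out by size but not by test. Of 172 different 5-base words held by at least 10 miRNAs detected on all 8 arrays, UGUGU ranked 1 by median difference, AGAGA 3 and GAGAG 5. The 14 holders of UGUGU had a median difference of 0.82, 13 lay above zero, and 0 passed (smallest adjusted p = 0.0752), with a median SE of 0.271 against 0.158 for all tested miRNAs. Longer repeats of this kind are typical of the miR-466, miR-467 and miR-669 families, to which miR-466j and miR-669n belong. Other holders have a single copy, such as let-7b-5p (0.05), miR-206-3p (−0.03) and miR-6937-5p (0.14). Of the 14 holders, 4 with repeats are shown with UGUGU in capitals.
miR-574-5p: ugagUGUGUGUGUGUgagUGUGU
miR-1187: uaUGUGUGUGUGUaUGUGUGUaa
miR-669n: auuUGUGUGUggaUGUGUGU
miR-466j: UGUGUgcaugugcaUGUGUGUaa
miR-574-5p was at 7.80, 7.76 and 8.30 in G93A/WT and 9.35, 8.73 and 8.37 in G93A/G93A (0.86 ± 0.26, SE, adjusted p = 0.0809). miR-466j was at 3.11, 2.37 and 3.66 against 4.65, 4.14 and 3.67. In both, G93A/G93A 1 is far above the rest and G93A/G93A 3 nearly meets G93A/WT 3. The centred median of the 14 was 1.04, 0.36 and 0.05 on the G93A/G93A arrays, −0.36, −0.54 and −0.02 on the G93A/WT arrays, and −0.13 and −0.21 on the WT/WT arrays. UGUGU was picked by its rank on this same difference, so the count above zero and the order of the groups restate that choice. Without G93A/G93A 3, 6 of the 14 passed.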

How the data were processed

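Per the labels' protocols, medium (about 600 µl) was extracted with TRIzol LS, and small RNA (150 ng) received Cy3 for 1-colour Agilent miRNA arrays. Per the file headers, the deposited values are linear intensity (total gene signal) for each miRNA, with an error and a flag for detection; undetected miRNAs are listed at 0.1. The background method is not stated in the labels or headers. A deposited table of the authors' processed intensities (492 mouse miRNAs, linear, not centred, array medians 23.2 to 26.5, normalization unknown) correlated with the log2 array signals at r = 0.970 to 0.999 and served as an alternative.

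Of 1881 mouse miRNAs, 423 were detected on all 8 arrays; each array was scaled to an equal 75th percentile over these (scale factors 0.593 to 1.44). Undetected or lower values were set to a floor of 1.52 units (log2 0.60), and log2 was taken. The 538 miRNAs detected on at least 2 arrays were tested with limma 3.58.1 in R 4.3.3 (lmFit, eBayes, prior degrees of freedom 1.96), all 8 arrays and 3 groups sharing 1 spread. Replicates are biological per the labels, which name no litter or culture day, and their number limits the precision. Simulated data for this comparison held 538 miRNAs, of which 200 were changed. There 86% of differences of 1 log2 unit and 96% of 2 units were recovered, and 3.19% of calls were false. Whether these shares hold with a slide row effect, or for miRNAs at the floor, was not tested. The replicate numbers did not pair the arrays.

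Named miRNAs were the 10 highest and the lowest up to 10 among passing miRNAs detected on all 6 arrays, the 8 largest bounds, passing members of lists, the 2 brightest of each list and the 3 brightest of all; others (miR-711, miR-30c-1-3p, miR-28a, miR-200b-5p, the UGUGU holders, miR-181 relatives and undetected list members) were picked once their values had been seen. The comparison and lists were chosen with earlier results of these data known. Alternatives covered scaling, floor, filter, blocks, prior, arrays left out and the authors' values.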

Additional observations from a re-analysis of the deposited data

Results flagged for a closer look

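Control features of the array, which no comparison used, were looked at on the same scale. The feature hur_4 had a mean scaled signal of 1201 units in G93A/G93A (1080 to 1297) and 1227 in G93A/WT (1116 to 1358), each array lying above both WT/WT arrays (at most 1046). The feature hur_6 had a mean of 364.9 units in G93A/WT (313.8 to 421.8), above both WT/WT arrays (at most 302.2), and 181 to 270 units in G93A/G93A. WT/WT 1, 1 of the 2 arrays that link the slide rows, stood apart on other controls: dmr_3 was at 5090 units there and at 255 to 1052 on the other 7 arrays, and dmr_6 at 1320 and at 46.7 to 238. These are array controls and not mouse miRNAs. The groups of 3 or fewer arrays were too small for a check on single outlying arrays.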

How the results depend on the processing

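Of the 57 calls (29 higher, 28 lower), the count moved by more than 1.5 times under these settings. Without scaling it was 149 (1 and 148). Testing all 1881 miRNAs gave 31 (17 and 14), and the slide row as a block gave 0 (0 and 0). With the replicate block it was 37 (17 higher), and with the replicate block in the 6 arrays alone, where the number is also the slide column, 12 (2 higher, 10 lower; added after seeing the data). Deviations of same-numbered arrays correlated at 0.02, −0.05 and −0.25, and no array matched its own number best in both groups. The lower calls numbered 10 with the authors' values, 18 and 12 with floors 2 and 4 times as high, and 14 among miRNAs detected on all 8 arrays; the higher calls numbered 18 with number classes centred. Leaving out 1 array gave 38 to 122 calls in all, 17 to 55 higher and 21 to 67 lower. The difference in detected miRNAs per array was −56.7, and −71.5 to −38.5 without 1 array. Signs of the 57 were kept in each setting but quantile normalization (56 of 57), no scaling (45 of 57) and the raised floors (56 and 42 of 57), where dim miRNAs fall to the floor in both groups; miR-30c-2-3p turned to −0.15 without scaling. Leaving out either WT/WT array repeats the fit on the 6 arrays alone (54 calls). A single WT/WT array adds nothing to the estimate of spread, so this is no separate check. Scaling on a percentile over all probes was not run, since on 3 arrays that percentile is an undetected value. Signal over background limits what can be said of the 18 lower miRNAs undetected in G93A/G93A.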

Other observations

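For 42 hairpins both arms were tested, and in 14 the arms differed in sign between G93A/G93A and G93A/WT. An arm passed in 4 hairpins and both arms in 0. miR-28a was 1 of the 14: miR-28a-5p was at 1.78, 1.55 and 1.53 in G93A/WT and undetected in G93A/G93A (at least 1.86-fold lower, limma adjusted p = 0.00112), while miR-28a-3p was at 4.19, 4.07 and 4.02 against 4.31, 4.47 and 4.44 (0.31 ± 0.09, SE, adjusted p = 0.0758). miR-28a-5p entered the test through its detection in G93A/WT alone. In limma it did not pass with a floor 2 times as high, with quantile normalization or on the authors' values. The other hairpins with an arm that passed were miR-133a, miR-200b and miR-411, whose arms lay on the same side of zero. The 3p arms miR-30c-1-3p (0.64 ± 0.14, SE, adjusted p = 0.0308) and miR-30c-2-3p, from different chromosomes with the same seed UGGGAGA, were both higher, and miR-30c-5p was not called (−0.15, adjusted p = 0.566). The difference between arms was not tested.

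Base composition differed between the classes of calls, as a description over 453 miRNAs with a sequence. The median share of G was 40.9% in higher, 28.6% in lower and 36.4% in the other miRNAs, and that of U was 18.2%, 23.8% and 22.7%. Among seeds shared by at least 3 tested miRNAs, 10 of 12 had a median difference below zero, where 58.0% of all tested miRNAs lay below zero. The 6 miRNAs with the seed AGCAGCA (the miR-15 and miR-16 group) lay below zero with a median of −0.41, and 0 of them passed in limma. All are numbered below 1000, a class with a median of −0.20. miR-882, higher in G93A/G93A, lies at chr12:109682207-109682228, between miR-431-5p (chr12:109590459-109590479) and miR-379-5p (chr12:109709065-109709085), which were lower.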
